A study of Homo sapiens with 2 samples.

Results

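HNRNPC peaks in genes for long noncoding RNAs (lncRNAs) were examined in A549 (NCI-A549 in the labels), a long-established line of human lung cancer cells of the non-small cell type. RNA immunoprecipitation sequencing (RIP-seq) had been carried out on 2 samples, 1 immunoprecipitate (IP) library made with 5 µg of anti-HNRNPC antibody and 1 input library taken without antibody. Both came from the same line, and no treatment is named. Here the IP library's list of peaks was analysed, and the input's own values were not. A peak was taken as a member when its summit lay on chromosomes 1 to 22 or X in exactly 1 RefSeq lncRNA gene span and in no protein-coding span. Peaks of NEAT1, MALAT1, TUG1, KCNQ1OT1, OIP5-AS1, NORAD, GAS5 and MEG3 (24 in all) were left out. This gave 363 members among 23148 peaks, of which 23086 lay on these chromosomes (1.57%, 95% exact binomial interval 1.42 to 1.74%). At 24 of the 363 summits a gene of another biotype, such as a pseudogene or a small RNA, was annotated as well.

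HNRNPC is an abundant nuclear protein of the hnRNP family that packages newly made transcripts and binds runs of U. LncRNAs are transcripts without a long open reading frame, and many are spliced, kept in the nucleus or processed into smaller RNAs. Some serve as hosts, whose introns or exons release microRNAs (miRNAs) or small nucleolar RNAs (snoRNAs). Others lie antisense to a protein-coding gene or start from the promoter of one in the opposite direction.

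Each group had a single library, so differences have no replicate check and no test between samples or gene types was made. Fold enrichment, a ratio of IP signal to local background, and q were computed per peak by the authors and describe peaks within this list only. Neither expression nor strand was measured in the list, so reads of overlapping or neighbouring genes on opposite strands cannot be told apart.

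Some of the member peaks that overlapped a window around an annotated start site are shown first by sequence. The reason is that 4 of the 12 members with a fold of 9.16 or more lay within 1 kb of a protein-coding gene. Of all 363 members 19 (5.23%) did so. The peak beside MAN2A1, also shown, has a fold of 6.88 and is not among the 12. Each line gives the RefSeq window (GRCh38 patch 14) from 250 bases before to 50 bases after the start of the gene named, in the direction of that gene, and capitals mark the bases under the HNRNPC peak.
LOC101929918 window, chr11:34051634-34051933, minus strand: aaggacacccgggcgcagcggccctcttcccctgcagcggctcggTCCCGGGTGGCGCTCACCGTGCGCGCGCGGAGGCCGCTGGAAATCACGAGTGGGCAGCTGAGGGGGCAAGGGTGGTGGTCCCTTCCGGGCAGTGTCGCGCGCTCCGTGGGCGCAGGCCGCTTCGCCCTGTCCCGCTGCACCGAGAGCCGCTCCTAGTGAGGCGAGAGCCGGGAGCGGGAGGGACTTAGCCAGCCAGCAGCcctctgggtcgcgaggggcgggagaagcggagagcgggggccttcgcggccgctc
LOC124903714 window, chr16:71808708-71809007, plus strand: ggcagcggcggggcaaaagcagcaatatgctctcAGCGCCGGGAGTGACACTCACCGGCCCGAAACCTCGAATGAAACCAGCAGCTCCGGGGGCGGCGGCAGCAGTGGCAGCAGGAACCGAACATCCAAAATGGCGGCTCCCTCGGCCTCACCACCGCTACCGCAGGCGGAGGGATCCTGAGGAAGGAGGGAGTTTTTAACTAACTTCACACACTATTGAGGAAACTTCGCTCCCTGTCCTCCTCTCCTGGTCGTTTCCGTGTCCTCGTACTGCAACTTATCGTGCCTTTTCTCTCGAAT
COX10 window, chr17:14069254-14069553, plus strand: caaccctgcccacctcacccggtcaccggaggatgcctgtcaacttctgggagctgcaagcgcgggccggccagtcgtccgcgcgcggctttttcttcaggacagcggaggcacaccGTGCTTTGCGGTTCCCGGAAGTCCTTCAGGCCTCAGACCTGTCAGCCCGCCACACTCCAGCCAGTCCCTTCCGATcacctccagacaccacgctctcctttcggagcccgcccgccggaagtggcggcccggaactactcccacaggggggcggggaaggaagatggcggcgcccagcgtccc
PAWR window, chr12:79690915-79691214, minus strand: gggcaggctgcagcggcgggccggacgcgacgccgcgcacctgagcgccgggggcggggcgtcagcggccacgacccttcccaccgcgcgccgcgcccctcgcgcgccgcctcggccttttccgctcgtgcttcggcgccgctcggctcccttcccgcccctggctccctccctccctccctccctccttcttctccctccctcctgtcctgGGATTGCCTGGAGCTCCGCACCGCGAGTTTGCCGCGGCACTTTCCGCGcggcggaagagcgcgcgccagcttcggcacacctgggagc
MAN2A1 window, chr5:109689677-109689976, plus strand: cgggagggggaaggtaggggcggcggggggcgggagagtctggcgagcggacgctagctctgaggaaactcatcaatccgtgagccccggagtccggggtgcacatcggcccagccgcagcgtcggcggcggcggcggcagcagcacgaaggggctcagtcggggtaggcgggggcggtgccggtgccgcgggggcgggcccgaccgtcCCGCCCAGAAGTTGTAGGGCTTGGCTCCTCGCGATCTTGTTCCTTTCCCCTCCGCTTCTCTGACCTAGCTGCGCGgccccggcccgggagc
The LOC101929918 peak lay whole within its window, with its summit 46 bases upstream of this annotated start and inside the gene span, which begins farther out. It also reached past the start of CAPRIN1, which lies on the other strand. The peak in LOC124903714 covered 266 bases of its window. The short peaks beside COX10, PAWR and MAN2A1 lay whole within the windows of these protein-coding genes, although their summits belonged to the lncRNA genes COX10-DT, PPP1R12A-AS2 and MAN2A1-DT. Over all members, 17 peaks of 17 lncRNA genes overlapped 21 such windows, 11 of them the window of the member's own gene. A run of T (letters TTTTT, in the direction of the gene) was present in 5 of the 21 windows (23.8%) and in 24.9% of all 35116 windows. A run of A (AAAAA), which is the same run on the other strand, was present in 3 (14.3%) against 24.5%. A run of T lay under the peak only in LOC124903714. The same bases are a run of A in the window of AP1G1 on the other strand, so this run is counted in both shares. Most members lie away from these windows, and their own bases were not read here.

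The second set of sequences are mature miRNAs made from the host genes among the members, shown to name the products of these hosts, along which the peaks are then placed. Capitals mark the seed, bases 2 to 8.
hsa-let-7a-5p: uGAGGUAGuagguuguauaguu
hsa-let-7f-5p: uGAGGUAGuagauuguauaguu
hsa-let-7d-5p: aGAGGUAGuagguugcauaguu
hsa-miR-17-5p: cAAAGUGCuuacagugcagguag
hsa-miR-20a-5p: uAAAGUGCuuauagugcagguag
hsa-miR-19a-3p: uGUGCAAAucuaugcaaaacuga
hsa-miR-19b-3p: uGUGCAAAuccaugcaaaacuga
hsa-miR-31-5p: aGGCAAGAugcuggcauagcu
hsa-miR-100-5p: aACCCGUAgauccgaacuugug
hsa-miR-193b-3p: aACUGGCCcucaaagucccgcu
hsa-miR-421: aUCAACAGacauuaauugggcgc
hsa-miR-138-5p: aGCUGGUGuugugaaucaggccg
The 3 let-7 miRNAs of MIRLET7A1HG share the seed GAGGUAG. Within MIR17HG, miR-17 and miR-20a share AAAGUGC, and miR-19a and miR-19b share GUGCAAA. Those of miR-31 (host MIR31HG), miR-100 (MIR100HG), miR-193b (MIR193BHG), miR-421 (FTX) and miR-138 (LOC124909489) were not shared by another of the mature sequences read. These came from 32 of 36 hairpins and do not hold both arms of each, so a shared seed could be missed. The 36 annotated hairpins lie in 16 member genes. A summit lay within 5 kb of 22 of them, and 1, MIR138-1, lay under a peak. Peaks took up little of most of these spans (4.70% of FTX, 9.37% of MIR17HG, 13.7% of MIRLET7A1HG and 0.228% of MIR100HG), so few hairpins under a peak is not a result about hairpins.

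The 363 members belonged to 89 lncRNA genes of 18170 (0.49%, 95% exact interval 0.394 to 0.602%). By the same list 3434 of 19970 protein-coding genes (17.2%) had a peak of their own. Many lncRNA genes overlap a protein-coding span, where a summit counted for the protein-coding gene, so these shares are not directly comparable. A few genes held many of the peaks. FTX had 48, SNHG14 had 41, MIR31HG had 18, LINC-PINT had 15 and LOC102724701 had 13, which together were 135 peaks or 37.2% (32.2 to 42.4%) of the members. At the other end 40 lncRNA genes (44.9%) had 1 peak, against 22.8% of the protein-coding genes with a peak. The 89 genes had a median span of 24110 bp, and the median over all lncRNA genes was 9081 bp.

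Folds in lncRNA genes were moderate. The lowest was 2.56, the median 5.27 (quartiles 4.79 and 6.47) and the highest 12.1. Peaks in a single protein-coding gene had a median of 5.76 (quartiles 4.79 and 7.22) and a highest fold of 31.5, and the median of all peaks was likewise 5.76. A fold of 10 or more was reached by 4 members (1.10%, 0.301 to 2.80%), where 8.65% of all peaks and 8.91% of those in a protein-coding gene did so. Without the 2 genes with most peaks the share was 1.09% (3 of 274). It depended on how peaks were assigned, being 3.65% when the whole peak had to lie in the span and 5.59% when protein-coding spans were ignored. Just above the threshold stood LINC00674 at 10.3 and just below it COX10-DT at 9.86. Taken gene by gene, the median of the genes' median folds was 5.39 for lncRNA genes and 5.59 for protein-coding genes, a smaller gap than over peaks.

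**Figure D1:**
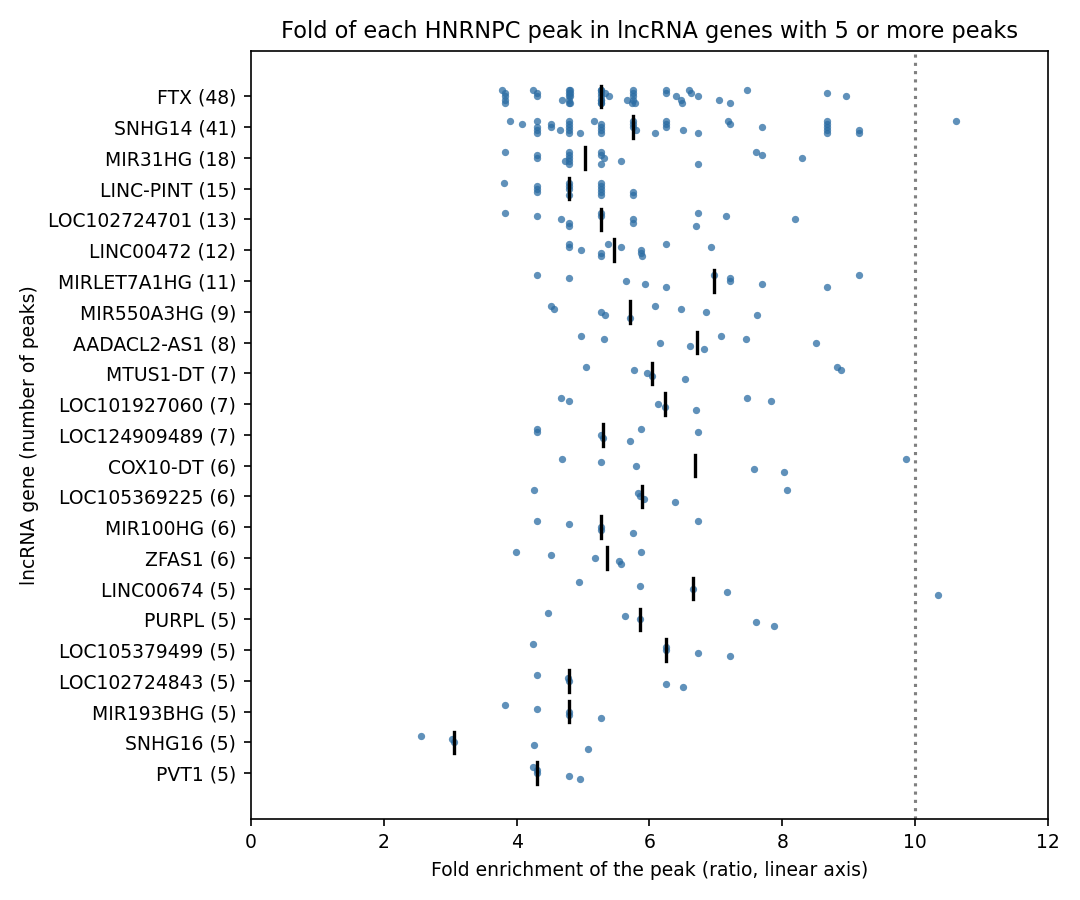
Fold enrichment (x axis, linear ratio) of each HNRNPC peak (points) in the 23 lncRNA genes with 5 or more peaks (y axis, number of peaks in brackets); black bars are medians and the dotted line a fold of 10. FTX with 48 peaks has a median of 5.27, MIRLET7A1HG has 6.98 and SNHG16 has 3.06, and only SNHG14 and LINC00674 pass the line.

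Few reads lay behind most of these folds. Fold and p together fixed a whole number of IP reads at the summit and a background level for each peak, when the IP was scaled by 0.535 and the lowest background was 0.103 control reads. All 23148 rows were solved within 0.001 of their −log10 p, 99.8% of them by a single number. The median was 11 IP reads for the members (quartiles 8.5 and 16, range 6 to 64) and 15 for peaks in protein-coding genes. Fewer than 10 reads lay at the summit of 137 members (37.7%), where 20.4% of all peaks had so few. Read numbers given for a peak, here and below, are inferred levels at its summit and not totals over its width. At the lowest background 1 more read raised the fold by 0.485, so neighbouring values such as 4.79, 5.27 and 5.76 differ by a single read and are not distinguishable. The inferred background reached 1 control read (0.999 or more, to allow for rounding) at 50 members (13.8%) and at 30.7% of all peaks. Their median fold was 4.94 with a median of 22 IP reads. The other 313 members had a median fold of 5.39 with 10 IP reads, and other peaks with a background under 1 read had 6.24 with 12. The lower median of lncRNA peaks was thus seen where the background was under 1 read. Where it was higher, the medians were 4.94 and, for other peaks, 4.96.

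**Figure D2:**
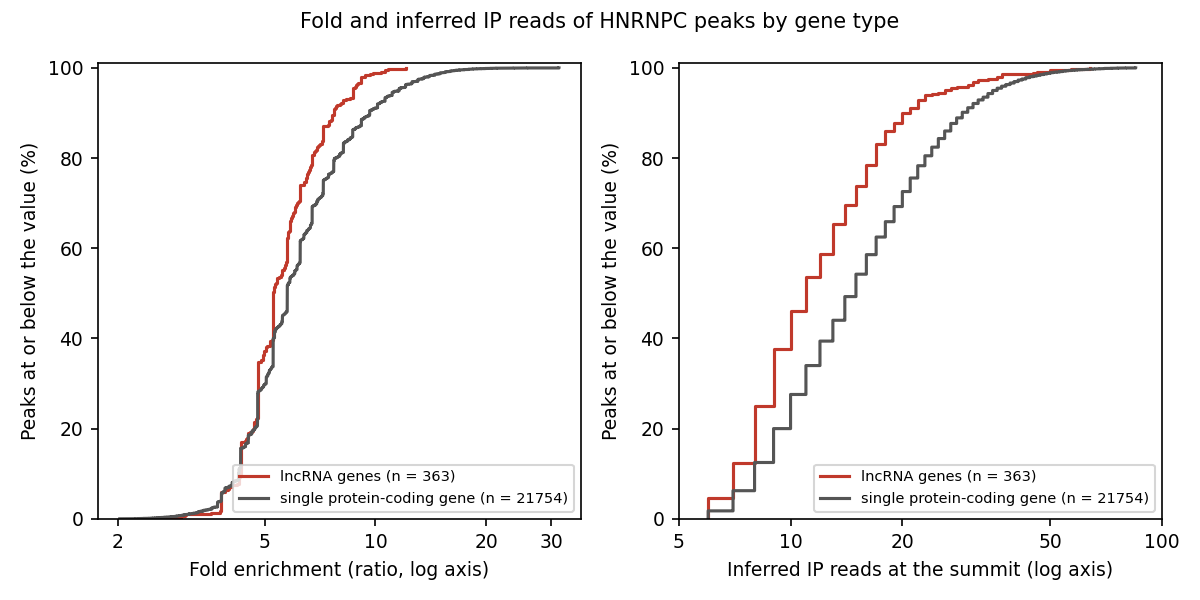
Cumulative share of peaks (y axis, %) by fold enrichment (left, log axis) and by inferred IP reads at the summit (right, log axis) for 363 peaks in lncRNA genes (red) and 21754 in a single protein-coding gene (grey). At the medians the red curves lie to the left, with 5.27 against 5.76 in fold and 11 against 15 in reads. The first quartile of fold is 4.79 in both. The lowest fold is 2.56 in red and 2.02 in grey.

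**Figure D3:**
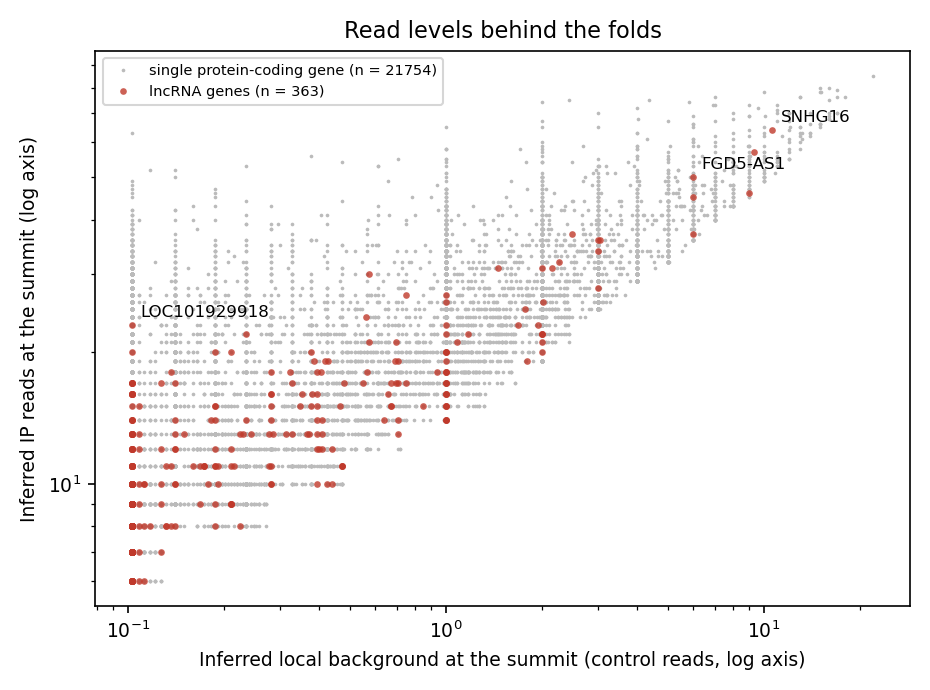
Inferred IP reads at the summit (y axis, log) against the inferred local background (x axis, control reads, log) for peaks in lncRNA genes (red) and in a single protein-coding gene (grey). SNHG16 reaches 64 IP reads over a background of 10.6, whereas LOC101929918, with the highest fold, has 23 over the lowest background of 0.103.

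The peaks themselves were wider in lncRNA genes. Their median width was 183 bp (quartiles 94 and 353.5), against 125 bp over all peaks and 123 bp in protein-coding genes. A width of 1000 bp or more was found for 14 members (3.86%, 2.12 to 6.39%), and for 2.53% of all peaks, which lies inside that interval. The widest were a peak of 2698 bp in ZFAS1, one of 2603 bp in MIR31HG, one of 2411 bp in SNHG17 and one of 2180 bp in AADACL2-AS1. Neighbouring summits of a gene stood close together, with a median spacing of 885 bp over 274 pairs, and 54.7% of the pairs were within 1000 bp. In protein-coding genes the median spacing was 2911 bp and 21.5% were within that distance. Many of the 274 pairs came from the genes with most peaks, such as FTX (median spacing 822 bp) and SNHG14 (1481.5 bp). Gene spans differ between the types, which this comparison does not take into account.

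Where RefSeq gave the direction of the gene (289 members in 67 genes), summits lay toward the start. Of these, 216 (74.7%, 69.3 to 79.6%) were nearer to the gene start than to its 3′ end, against 42.2% of 18249 peaks in protein-coding genes. Without FTX and SNHG14 the share was 63.5% of 200. Counted by gene, 47 of 67 had their median summit nearer to the start. Within 1000 bp of the start lay 36 summits (12.5%, 8.88 to 16.8%), and 8.64% of those in protein-coding genes. Within 1000 bp of the 3′ end lay 9 (3.11%, 1.43 to 5.83%) and 0.23%. Gene spans differ between the types, which these shares do not take into account.

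FTX, a noncoding gene of the X inactivation centre and host of several miRNAs, held the most peaks. The gene (NCBI gene 100302692) spans 265439 bp at chromosome X, 74028136 to 74293574, on the minus strand. Its 48 folds ran from 3.79 to 8.97 with a median of 5.27, on 6 to 17 IP reads. All 48 summits lay between 11817 and 81081 bp from the gene start, and the last 184 kb of the span had none. The miRNA genes MIR545 and MIR374A lie upstream of every summit. A second cluster with MIR421, MIR374B and MIR374C, the last on the opposite strand, had 40 summits upstream and 8 downstream, the nearest peak being 765 bp from MIR421. The inferred background was under 1 control read at 47 of the 48. The strongest peak, at 74279181 to 74280489, was 1309 bp wide with 17 reads at its summit (95% exact Poisson interval 9.90 to 27.2). JPX and FIRRE, the other listed lncRNA genes of the X chromosome, had no member.

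SNHG14, a paternally expressed RNA of the imprinted Prader-Willi region that hosts the SNORD116 and SNORD115 snoRNA arrays, came second. It spans 595855 bp at chromosome 15, 24823608 to 25419462, on the plus strand. Folds of its 41 peaks ran from 3.90 to 10.6 with a median of 5.76. The peaks formed a group of 6 before SNORD109A, 6 between SNORD109A and the SNORD116 array, 27 within the array and 2 after it. The strongest, at 25095665 to 25095844, had 20 IP reads (12.2 to 30.9) over the lowest background. Of 30 SNORD116 genes 10 were overlapped by a peak, most of them in part, as was SNORD109A. Peaks lay densely in the 56.9 kb array, and the widest over these genes were 1362 and 1457 bp. The share of the array under peaks was not worked out, so this count is not a result about snoRNAs. The SNORD115 array of 48 genes, farther downstream, held no summit of a member. The 10 SNHG14 peaks that overlapped a snoRNA had a median fold of 7.46, against 5.27 for the other 31. These 2 sets were not matched for width or position, and wide peaks are more likely to overlap a snoRNA. Another 9 summits in the span lay in UBE3A, the ubiquitin ligase gene that the far end of SNHG14 opposes, and were not members. The SNORD116 genes are repeated copies, so how reads were shared among them is uncertain.

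In the other listed imprinted genes a member was found in MEG8 and none elsewhere, so 2 of 9 of these well-studied genes had members, beside 0.49% of all lncRNA genes. MEG8, a maternally expressed RNA next to MEG3 that hosts the SNORD113 and SNORD114 snoRNAs, had 2 peaks. The peak at chromosome 14, 100981031 to 100981962, overlapped SNORD114-20 with a fold of 9.16 and 17 IP reads, and the other had 4.79 with 8. H19, a maternally expressed growth-related RNA, had none.

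**Figure D4:**
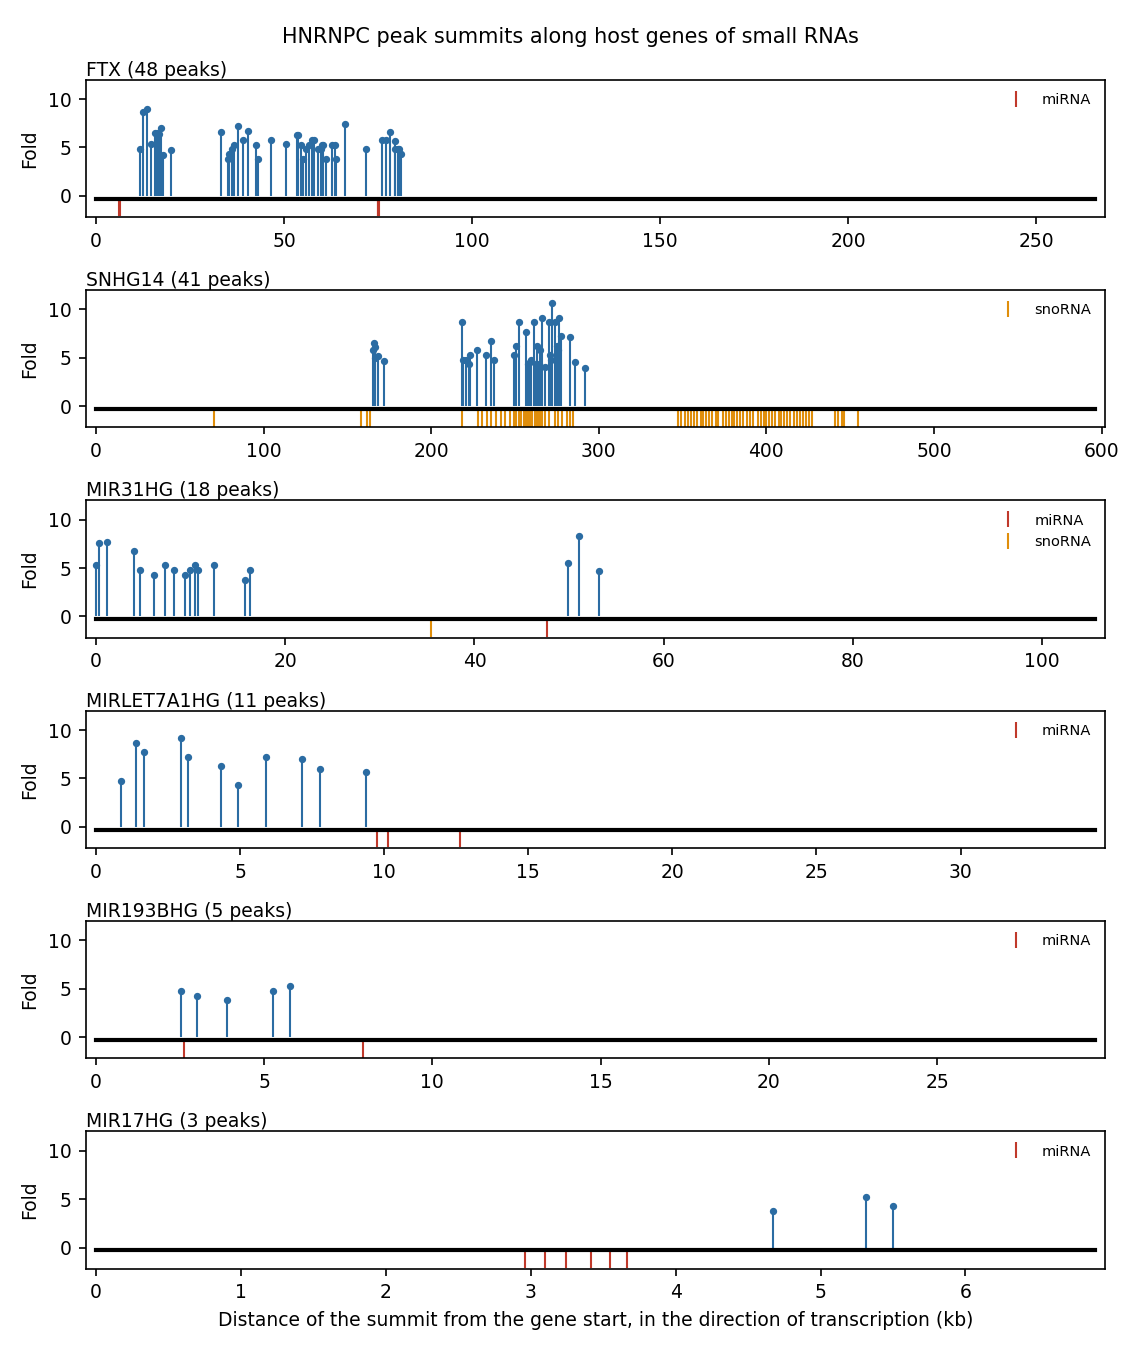
Fold (y axis) of each peak summit (blue) along 6 host genes, by distance from the gene start in the direction of transcription (x axis, kb); the black bar is the gene span, and ticks below it are miRNA (red) and snoRNA (orange) genes. All 11 summits of MIRLET7A1HG precede the let-7 hairpins, all 3 of MIR17HG follow the miR-17 cluster, and the SNORD115 array at the right of SNHG14 has none.

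Among miRNA hosts the side of the hairpin differed from gene to gene. MIRLET7A1HG, host of let-7a-1, let-7f-1 and let-7d, had 11 peaks with folds from 4.30 to 9.16 and a median of 6.98. All of them lay upstream of the first hairpin, from 870 to 9372 bp after the gene start, and the nearest ended 206 bp before MIRLET7A1. Downstream of the hairpins the remaining part of the 34648 bp span carried none. In MIR100HG, whose 394543 bp span holds miR-100, let-7a-2 and miR-125b-1, all 6 summits lay just upstream of MIR100, from 267649 to 270524 bp after the gene start, and the nearest peak was 5 bp away with a fold of 5.76. Their folds ran from 4.30 to 6.73, and no summit lay near MIR125B1, 52469 bp from the closest peak.

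MIR31HG, host of miR-31 on the short arm of chromosome 9, had 18 peaks with folds from 3.82 to 8.30 and a median of 5.03. Of these, 15 lay within 17 kb of the start, upstream of the hairpin, with a median of 4.79. The summit nearest the start was 25 bp from it, and the strongest peak, at 21508741 to 21508948, was among the 3 downstream of MIR31. MIR193BHG had 5 peaks with folds from 3.82 to 5.27. A 47 bp peak ended 40 bp before MIR193B, and the other 4 lay between MIR193B and MIR365A. In MIR17HG, the host of the growth-promoting miR-17 cluster, 3 peaks with folds of 3.80, 5.25 and 4.29 all lay downstream of the cluster, from 827 bp after MIR92A1. With 6, 9 and 7 IP reads these 3 values do not differ beyond counting error. MIR550A3HG had 9 peaks, of which 8 (folds 4.52 to 7.63) lay at its 3′ end, at most 4978 bp from it. The uncharacterised gene LOC124909489 had 7 peaks with folds from 4.30 to 6.73 around MIR138-1, and the peak over that hairpin had a fold of 5.87 with 11 reads.

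By symbol, 11 of 87 genes named as miRNA hosts (12.6%, 6.48 to 21.5%) and 6 of 29 named as snoRNA hosts (20.7%, 7.99 to 39.7%) had a member. The shares were 1.04% of 2306 LINC genes, 1.02% of 591 divergent transcripts, 0.44% of 2046 antisense genes and 0.162% of 12316 genes with a LOC symbol. All other symbols gave 1.64% of 795 genes and held 76 peaks, the most of any class. FTX and ZFAS1 fall there, although both host small RNAs. Median folds of these classes ran from 5.27 to 5.88. In the chosen lists 5 of 21 miRNA hosts and 6 of 25 snoRNA hosts had a member, where 0.49% of all lncRNA genes did. Of the 21, MIR4435-2HG was the fifth with a member, a single peak of 5.76. DLEU2, host of miR-15a and miR-16-1, had none. These lists hold well-studied genes, and expression was not matched.

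Among the snoRNA hosts other than SNHG14, ZFAS1 and SNHG16 had more reads than most members. ZFAS1, which hosts the SNORD12 snoRNAs, had 6 peaks over 40.02% of its 11083 bp span, with folds from 3.99 to 5.88 and a median of 5.36. They rested on 19 to 32 IP reads over a background of 1.18 to 2.27. In SNHG16 the 5 folds ran from 2.56 to 5.07 with a median of 3.06, the lowest of any gene with 5 or more peaks. Yet its peak at chromosome 17, 76563572 to 76563683, had 64 IP reads (49.3 to 81.7), the most of any member, over a background of 10.6. FGD5-AS1, an antisense gene of 5663 bp, was alike in having folds from 2.97 to 4.80 on 34 to 50 reads. In these genes reads and background were both high. SNHG26 had 4 peaks with folds from 4.69 to 8.15 on 11 to 15 reads. The single SNHG17 peak overlapped both SNORA71A and SNORA71C in part, with a fold of 7.22 on 21 reads, and SNHG32 had 1 peak of 4.95. SNHG3 and SNHG4 had summits, but in protein-coding spans, and SNHG1, SNHG5 and SNHG8 had no member.

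Among chosen, well-studied lncRNAs, 3 of 8 in tumour suppressor and cell cycle loci and 3 of 22 from lung cancer studies had a member, beside 0.49% of all lncRNA genes. LINC-PINT, an RNA induced by p53 and named for it, had 15 peaks with folds from 3.82 to 5.76, a median of 4.79 and 6 to 10 reads each. It has 4 annotated starts, and all 15 summits lay downstream of the last, within 35.3 kb of the 3′ end, in groups of 7 and 8. PURPL, another p53-regulated RNA, had 5 peaks with folds from 4.47 to 7.88, the first of them 207 bp after its start. CDKN2B-AS1, in the CDKN2A and CDKN2B tumour suppressor locus, and DLEU1 had none. Neither expression nor gene copy number in this line was measured here, so the absence of a peak is not a result about binding. LINC00472, studied in breast and lung cancer, had the most peaks per 100 kb among genes with 3 or more peaks. Its 12 peaks lay in a span of 12882 bp (93.2 per 100 kb), with folds from 4.79 to 6.92 and a median of 5.47 on 8 to 13 reads. LINC02595 followed with 87.8 per 100 kb over 3 peaks. The median over such genes was 16.8 for lncRNA genes and 10.3 for 2191 protein-coding genes. LUCAT1, a lung cancer-associated transcript, had 2 peaks of 4.89 and 5.32. PVT1, the neighbour of MYC, had 5 from 4.25 to 4.96 spread over 217 kb. HOTAIR, UCA1 and CYTOR had none.

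The highest fold belonged to a peak that cannot be assigned to the lncRNA gene alone. This peak of LOC101929918, at chromosome 11, 34051689 to 34051888, had a fold of 12.1 with 23 IP reads (14.6 to 34.5), and 4.08% of all peaks reached or passed this fold. Its summit lay 2 bp from CAPRIN1, which encodes a cell cycle-associated RNA-binding protein, and the peak reached into that gene. The summit of LOC124903714 (9.16, 17 reads) lay 202 bp from AP1G1, a clathrin adaptor subunit gene, and its peak reached past the start of that gene. The COX10-DT summit at 9.86 (20 reads) lay 98 bp from COX10, a gene for haem A synthesis, and that of PPP1R12A-AS2 at 9.67 (20 reads) lay 21 bp from PAWR, a pro-apoptotic gene. Another summit, in MAN2A1-DT at 6.88, was 3 bp from MAN2A1. The peaks beside PAWR and MAN2A1 also reached into those genes. The remaining 5 COX10-DT peaks (4.69 to 8.03) lay at the far end of that gene.

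Few members had such a neighbour. The rule had left out every summit inside a protein-coding span, so these distances partly follow from it. Among the members, 19 in 17 genes (5.23%, 3.18 to 8.05%) had their summit within 1 kb of a protein-coding span. Another part of the peak overlapped such a span in 7 members. The median fold of the 19 was 6.03, against 5.27 for the others. Within 5 kb lay 49 (13.5%, 10.2 to 17.5%), whereas 209 (57.6%) were more than 50 kb away. At the 5 kb limit the median folds were closer, 5.48 for the 49 and 5.27 for the 314 farther away. The other members with a fold of 10 or more, in GRPEL2-AS1, LINC00674 and SNHG14, lay farther than 5 kb from a protein-coding gene. GRPEL2-AS1 had 4 peaks with folds from 5.87 to 10.8. The highest was 1977 bp wide, with 30 reads at its summit, and lay 5971 bp from the nearest coding gene. The LINC00674 peak of 10.3, at chromosome 17, 68101703 to 68101921, had 22 reads and lay 54892 bp from the nearest coding gene. It overlapped by 44 bp the start window of LOC124904048, on the other strand, with its summit 250 bases upstream of that start. Without strand this peak cannot be assigned to LINC00674 alone. MTUS1-DT had 7 peaks from 5.05 to 8.88 on 16 to 27 reads, and its widest overlapped MTUS1.

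Several genes with peaks have spans of nearly the same length or overlap pseudogenes, and the placing of reads there is uncertain. Their sequences were not compared. On the short arm of chromosome 21, between 5554495 and 7435889, 5 genes held 28 members (7.71%) with folds from 3.82 to 8.19 and a median of 5.27. LOC102724701 led with 13, in groups of 7 and 6, and LOC105379499 and LOC102724843 had 5 each. LINC03104, LINC03105 and LOC102724843 have spans of 38368, 38341 and 38372 bp, which differ by at most 31 bp. Each had a peak that began 583 to 858 bp after the lower end of its span and another that began 1510 to 1679 bp after it. On chromosome 17, 13 members of LOC105369225, LOC101927060 and LINC00674 overlapped pseudogenes of the LRRC37A family. Of these, 6 lay in LRRC37A4P, 5 in LRRC37A17P and 2 in LRRC37A16P, with folds from 4.26 to 8.07. AADACL2-AS1 had 8 peaks with folds from 4.97 to 8.51, 2 of them over the pseudogene AADACP1.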

How the data were processed

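RIP-seq peaks of 1 HNRNPC IP library of A549 cells were analysed. HISAT2, MACS2 and bedtools, with hg38 as the build, come from the tool list and are credited per the submitters' processing notes. Their versions, roles and settings, filters and the control used are not given in the sources used here. The deposited list gives per peak a score (in all 23148 rows the integer part of 10 times −log10 q), a fold enrichment (ratio), and significance as −log10 p and −log10 q values, with a highest q of 0.00998. No read totals are given, so depth is known only through the levels inferred here.

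Genes came from RefSeq (GRCh38 patch 14), and the direction of a gene from the RefSeq start windows. IP reads and background at the summit were solved from fold and p under the formulas of MACS2, fold = (scaled IP + 1)/(background + 1) and an upper Poisson tail, with the scale and lowest background estimated from the list. The solver was tested on simulated data and recovered 100% of 3000 simulated peaks. These were made with the same formulas, so the test cannot show that the deposited values follow them. Scale and background differed from those of the data, and read numbers as low as the lowest among the members were not simulated. Intervals are 95% exact Clopper-Pearson or Poisson intervals, cover counting error only, and ignore that peaks of a gene are not independent. The members, lists and named genes were chosen with earlier results of these data known.

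Named genes were the 15 with most peaks, the 10 of highest fold, those of the 10 peaks of lowest q and of the 10 widest, the 5 densest with 3 or more peaks, those nearest a fold of 10, and up to 4 per list, with members whose absence matters. Other genes were named after their values were seen. Alternatives were other thresholds, rules of assignment and sets of genes. Coordinates are 1-based. Scripts ran in Python 3.11.15 with scipy 1.17.1, pandas 2.3.3, numpy 2.4.6 and, for plots, matplotlib 3.10.9.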

Additional observations from a re-analysis of the deposited data

How the results depend on the processing

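With 1 IP library no replicate could be left out. No paired analysis was possible because each group has 1 sample and the result comes from no test. Of 70 values under other settings 59 stayed within 1.5 times the count or inside the 95% interval of the value given. With q of 0.001 or less, which kept 284 members, the median fold was 5.76 and the median width 222.5 bp. When the whole peak had to lie in the span that claims it (384 peaks), a fold of 10 or more was reached by 3.65% and 18.5% of summits lay within 5 kb of a protein-coding span, since peaks reaching out of a protein-coding span then counted for the lncRNA gene. Without FTX the 5 genes with most peaks held 31.4% and 48.9% of summits lay within 5 kb of a span end, against 37.2% and 42.4%. With protein-coding spans ignored there were 1288 peaks in 470 genes with a median fold of 5.72, a median width of 138 bp and 5.59% at a fold of 10 or more; most of these summits also lie in a protein-coding gene. Leaving out the genes on the short arm of chromosome 21, or peaks that reach into a protein-coding span, were chosen after seeing the data and moved none of the 8 values beyond these bounds. Low read numbers limit the folds, as 37.7% of members have fewer than 10 IP reads at the summit.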

Other observations

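Members were spread unevenly over the chromosomes. Chromosome X held 53, of which FTX accounted for 48, and LINC02595, the next on that chromosome, for 3. Chromosome 15 held 43, 41 of them in SNHG14, chromosome 9 held 34, chromosome 21 held 32 and chromosome 17 held 31. Chromosome 1 held 3 and chromosome 4 held 1, the MIR4453HG peak, which began 33 bp after the miRNA MIR4453 with a fold of 4.30.

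LncRNA spans that overlap protein-coding genes held many more summits. In 925 cases a summit lay in exactly 1 lncRNA span and in a protein-coding span as well, over 387 lncRNA genes, and 14 summits lay in several lncRNA spans without a protein-coding gene. Without strand in the list these cannot be assigned to either gene.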
